A study of Mus musculus with 21 samples.

Results

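Cadherin, cell-surface, keratin and tight-junction genes of simple epithelia were followed across 21 total RNA-seq libraries of mouse embryonic stem cells, together with the stratifin and Bspry genes and 2 transcription factors that act on such genes. The set held 10 of the 22512 genes in the deposited table: Cdh1, Epcam, Krt8, Krt18, Cldn6, Cldn7, Sfn, Bspry, Grhl2 and Zeb1. It was chosen by measured values: Sfn and Bspry lay far lower in the libraries labelled Ago2KO_empty than in T6B_MUT. All values of that contrast are therefore given below as a description without a test. Sfn and Bspry were tested only in Experiment 1, whose values the rule of choice did not name. Since the genes were chosen with earlier results of these data known, those tests are no independent check of that contrast.

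The study asked how silencing by TRIM71, a protein that binds mRNAs and represses them, relates to silencing by microRNAs, which AGO2 carries and TNRC6 (GW182) proteins execute. Every library came from embryonic stem cells of the 129S6/SvEvTac strain that carry the reporter GFP_5xT71BS and stably express FLAG-tagged Cas9 with blasticidin resistance, so the controls carry these too. Experiment 1 held untransfected parental cells (W), Trim71-/- cells (Trim71KO) and Ago2-/- cells (Ago2KO). Experiment 2 held parental cells transfected with a plasmid for FH-T6B_WT::mCherry (T6B_WT), a TNRC6B peptide that binds Argonaute, or for its mutant FH-T6B_MUT::mCherry (T6B_MUT), and Trim71-/- or Ago2-/- cells with empty plasmid (Trim71KO_empty and Ago2KO_empty). Each group had 3 libraries, which the series' design calls biological replicates. Whether an edited line is 1 clone is not given in the sources used here. Since none of the 7 groups holds unedited cells with the empty plasmid, T6B_MUT served as control in Experiment 2, and plasmid and genotype cannot be told apart in its knockout comparisons.

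E-cadherin (Cdh1) and the adhesion molecule Epcam hold neighbouring epithelial cells together, claudins seal the tight junction, and keratins 8 and 18 pair into the filaments of simple epithelia. GRHL2 is a transcription factor that activates many of these genes, whereas ZEB1 represses Cdh1 and other epithelial genes by binding E-boxes. ZEB1 and the microRNAs of the miR-200 family are known to repress each other. Embryonic stem cells grow as compact colonies joined by E-cadherin, and their most abundant microRNAs belong to the miR-290 and miR-302 families.

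The promoters of Sfn, Bspry and Cldn6 are shown because the values of Sfn and Bspry chose the set and because Bspry and Cldn6 had the largest falls of the 10 in the Ago2-/- libraries of Experiment 1. They come from RefSeq (GRCm38.p6) and run from 250 bases before to 50 after the annotated start, 5′ to 3′ on the gene's strand, with the E-box hexamers CAGGTG or CACCTG in capitals.
Sfn promoter, chr4:133602119-133602418, minus strand: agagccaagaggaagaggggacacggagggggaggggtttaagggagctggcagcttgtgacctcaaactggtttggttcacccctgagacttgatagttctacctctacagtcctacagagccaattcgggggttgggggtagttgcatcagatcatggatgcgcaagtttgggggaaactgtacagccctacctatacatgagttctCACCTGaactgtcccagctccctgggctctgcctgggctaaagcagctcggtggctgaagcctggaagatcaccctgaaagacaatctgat
Bspry promoter, chr4:62479812-62480111, plus strand: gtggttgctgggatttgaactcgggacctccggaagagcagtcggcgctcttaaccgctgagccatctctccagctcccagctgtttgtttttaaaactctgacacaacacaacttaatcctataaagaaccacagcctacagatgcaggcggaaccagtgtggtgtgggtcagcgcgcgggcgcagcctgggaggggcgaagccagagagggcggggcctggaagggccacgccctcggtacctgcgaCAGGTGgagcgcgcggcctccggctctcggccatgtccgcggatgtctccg
Cldn6 promoter, chr17:23679115-23679414, plus strand: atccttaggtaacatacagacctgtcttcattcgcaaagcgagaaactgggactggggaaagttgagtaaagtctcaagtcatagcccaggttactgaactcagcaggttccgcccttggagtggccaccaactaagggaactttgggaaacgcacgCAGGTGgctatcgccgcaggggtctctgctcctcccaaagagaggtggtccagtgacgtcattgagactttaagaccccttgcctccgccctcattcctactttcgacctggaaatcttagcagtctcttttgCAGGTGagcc

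In Sfn the hexamer began at −41, in Bspry at −1 and in Cldn6 at −93 and 41, counted from the start as 1 with no position 0. RefSeq promoters matched 7 of the 10 genes, with 8 promoters in all, since Cldn7 has a pair of starts. Cdh1, Grhl2 and Zeb1 had no match, so their promoters were not searched. E-box hexamers also began at −187 and −19 in Epcam, at −111 in Krt8, at −214 in Krt18 and at −97 and −57 at a Cldn7 start. These hexamers, read on both strands, occurred in 20.2% of all 32851 RefSeq promoters of this length. The Grainyhead core AACCGG, whose other strand reads CCGGTT, occurred in 6.83% of all promoters and once among these, at −63 in Cldn7, where its last base lies beside the E-box at −57. The GC box GGGCGG, whose other strand reads CCGCCC, occurred in 35.7% of all promoters, and among the 7 genes searched in Bspry, Cldn6, Cldn7 and Epcam. These are matches of letters and no evidence of binding.

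The mature microRNAs that bear on Zeb1 and on stem cells are shown from RefSeq (GRCm38.p6), with the seed (bases 2 to 8) in capitals. MicroRNAs were not analysed in these libraries.
miR-200b-3p: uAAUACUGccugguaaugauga
miR-200c-3p: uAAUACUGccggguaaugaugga
miR-429-3p: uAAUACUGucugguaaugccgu
miR-200a-3p: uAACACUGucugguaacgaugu
miR-141-3p: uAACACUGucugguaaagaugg
miR-294-3p: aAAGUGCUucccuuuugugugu
miR-302d-3p: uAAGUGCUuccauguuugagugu

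The first 3 share the seed AAUACUG, miR-200a and miR-141 share AACACUG, and miR-294 and miR-302d share AAGUGCU. In the longest 3′ UTR that GENCODE M21 annotates for Zeb1, of 2401 bases, the site CAGTATT of the first seed occurred 5 times and the site CAGTGTT of the second 4 times. The site AGCACTT of the third did not occur there. None of the other 9 genes held CAGTATT, Cldn6 and Grhl2 each held 1 CAGTGTT, and Grhl2 alone held AGCACTT, 2 times in 2718 bases. Of 14921 genes with a 3′ UTR, whose median length was 1124 bases, 14.9% held CAGTATT, 19.7% CAGTGTT and 16.7% AGCACTT.

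The depth of a library was 29.6 M to 50.8 M counts in Experiment 1, and Experiment 2 had 33.9 M to 57.9 M. Levels of 1 gene are given as CPM, counts relative to the library total, with library sizes scaled by TMM. Ago2 lay at 134 to 153 CPM in W and at 39.8 to 43.6 CPM in Ago2KO. In the libraries labelled Ago2KO_empty it stood at 87.4, 167 and 45.6 CPM in replicates 1, 2 and 3, against 112 to 143 CPM in T6B_MUT, which goes against the label, above all in replicate 2. Trim71 mRNA was lowered but present in both Trim71-/- groups, at 412 to 459 CPM against 602 to 618 CPM in W, and at 393 to 409 CPM against 482 to 503 CPM in T6B_MUT. Lower Trim71 mRNA was not particular to them. Ago2KO, at 504 to 522 CPM, was called lower than W (log2 fold change −0.25, edgeR adjusted p 0.00161). T6B_WT, at 417 to 445 CPM, lay below T6B_MUT but was not called (edgeR adjusted p 0.102). The libraries labelled Ago2KO_empty, at 419 to 564 CPM, overlapped T6B_MUT. The summed level of 8 stem cell markers was 3716 to 5029 CPM over the 21 libraries. It was 4689 to 5029 CPM in Trim71KO, above W at 4091 to 4338 CPM. Trim71KO_empty, at 4553 to 4775 CPM, lay above T6B_MUT at 4041 to 4187 CPM, and the other groups overlapped their controls. The summed level of trophectoderm markers (7 genes) was 5.51 to 10.1 CPM, of surface ectoderm (3 genes) 0.474 to 2.77 CPM and of fibroblasts or feeder cells (4 genes) 9.66 to 16.5 CPM. Markers of primitive endoderm, an extraembryonic cell type (8 genes), summed to 51.5 to 52.6 CPM in W, and no marker was at 0 in a whole group. Their sum was 6.95 to 7.30 CPM in Trim71KO and 12.5 to 14.5 CPM in Ago2KO. In Experiment 2 it was 31.3 to 31.8 CPM in T6B_MUT, 25.3 to 28.5 CPM in T6B_WT, 10.7 to 12.5 CPM in Trim71KO_empty and 18.7 to 27.9 CPM in the libraries labelled Ago2KO_empty.

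Per length, E-cadherin and Epcam were the most abundant of the 10 in all 7 groups, and Cldn7 had the lowest mean in all but Trim71KO_empty, where Grhl2 (0.803 ± 0.0953 RPKM) lay below it (1.45 ± 0.268 RPKM). In W the deposited RPKM (mean ± SD, n = 3) was 44.2 ± 1.12 for Cdh1, 39.3 ± 1.42 for Epcam and 19.9 ± 0.995 for Sfn. Krt18 (8.55 ± 0.483), Krt8 (8.49 ± 0.381) and Cldn6 (7.65 ± 1.03) followed, and these neighbours did not differ beyond their spread. Grhl2 (4.72 ± 0.0938) and Bspry (4.59 ± 0.418) did not differ beyond their spread either. Zeb1 (1.84 ± 0.0782) and Cldn7 (1.05 ± 0.0801) were lowest. In Trim71KO the RPKM of Grhl2 (1.56 ± 0.0547) stood below that of Bspry (3.81 ± 0.621), whereas Krt18 (3.22 ± 0.406) and Bspry overlapped, and in Ago2KO Zeb1 (2.98 ± 0.106) stood above Grhl2 (2.68 ± 0.101). In T6B_MUT, Epcam (32.9 ± 1.42) stood above Cdh1 (29.1 ± 0.372), the reverse of the order in W.

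**Figure D1:**
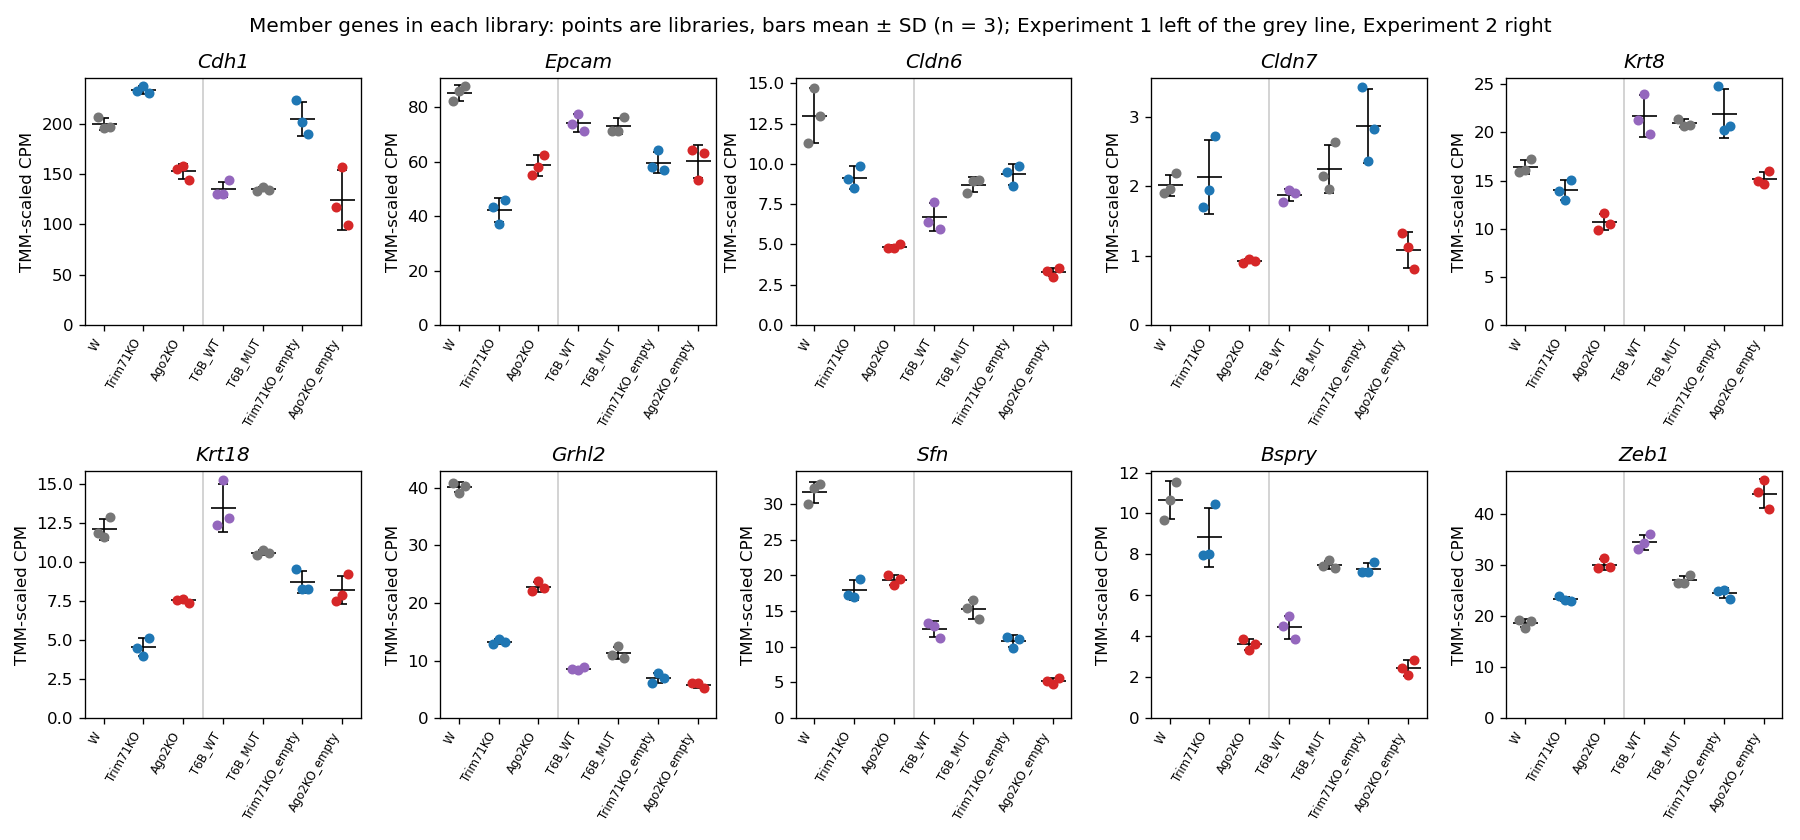
TMM-scaled CPM of the 10 genes (vertical axes from 0) in each of the 21 libraries, by group. Points are libraries and bars the mean ± SD (n = 3), with Experiment 1 left of the grey line. In Ago2KO the 3 points lie below those of W for all genes but Zeb1, where they lie above.

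Loss of Ago2 in Experiment 1 moved all 10 genes. Sfn, Bspry, Cldn6, Cldn7, Krt8, Krt18, Epcam, Cdh1 and Grhl2 fell and Zeb1 rose, each with an adjusted p under 0.05 in edgeR's quasi-likelihood test over 21210 genes. Of all genes tested 18.0% were called in this comparison, 7.78% as lower and 10.2% as higher. The count of all genes called lower went from 1650 to 1014 without replicate 2 of W and to 1016 without replicate 3 of W. CPM of the groups overlapped for none of the 10, where 34.2% of all genes tested had groups that did not overlap. Their median log2 fold change was −0.70, against −0.00 over all genes tested. Falls ran from 2.93-fold for Bspry to 1.31-fold for Cdh1. All 8 primitive endoderm markers were also lower in Ago2KO by edgeR, and 7 of 8 by DESeq2. Of 6 tested markers of 2-cell-like cells, a rare state of stem cell cultures, edgeR called 5 lower and DESeq2 3. The sum over 7 such genes was 2.71 to 3.04 CPM against 11.7 to 13.2 CPM in W. The part of both marker sets in these changes was not tested. In whole-culture RNA, fewer cells of a type and less RNA per cell cannot be told apart.

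Loss of Trim71 in Experiment 1 gave a more divided picture, measured against the same 3 W libraries. Grhl2, Krt18, Epcam, Sfn, Cldn6 and Krt8 fell, 6 of the 10. Cdh1 and Zeb1 rose, and Bspry and Cldn7 were not called. Of all genes 32.6% were called, 15.6% lower and 16.9% higher. The median log2 fold change of the 10 was −0.38, against −0.00 over all genes. Primitive endoderm markers were lower for 7 of 8, 2-cell-like markers for 5 of 6 (summed level 0.753 to 1.48 CPM) and trophectoderm markers for 3 of 7 with 1 higher, and their part was not tested. Set against each other, the edited lines differed for 9 of the 10, with Bspry, Cldn7, Cldn6, Cdh1 and Krt8 higher in Trim71KO than in Ago2KO and Grhl2, Krt18, Epcam and Zeb1 lower. In that comparison 34.2% of all genes were called, 17.1% in each direction. There 5 of 8 primitive endoderm, 4 of 7 trophectoderm (3 by DESeq2) and 3 of 6 2-cell-like markers were lower in Trim71KO, and their part was not tested.

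With the T6B peptide, 4 of the 8 genes tested were called: Zeb1 and Krt18 higher, Grhl2 and Cldn6 lower. Of all genes tested 16.0% were called, 9.29% higher and 6.69% lower. The count of genes called lower, 1439, was 761 to 952 without replicate 1, 2 or 3 of T6B_MUT or replicate 1 or 2 of T6B_WT and 2655 with only both groups fitted, and that of genes called higher went from 1998 to 1284 without replicate 1 of T6B_MUT. The log2 fold changes of all 10 had a median of −0.14, against 0.01 over all genes. The calls of Krt18, Cldn6 and Grhl2 were each lost when single libraries were left out, as given with their values below. The summed level of 7 markers of 2-cell-like cells was 76.1 to 78.8 CPM in T6B_WT against 15.8 to 17.1 CPM in T6B_MUT, with all 7 called higher, and their part was not tested.

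In Trim71KO_empty against T6B_MUT, Cdh1 was higher and Epcam, Grhl2 and Krt18 lower among the 8 genes tested, where 27.8% of all genes were called, 14.4% higher and 13.4% lower. The median log2 fold change of all 10 was −0.09, against 0.00 over all genes. Of the primitive endoderm markers 6 of 8 were lower and 1 higher there, and their part was not tested. In the libraries labelled Ago2KO_empty, the contrast that chose the set, 28.8% of all genes were called, 12.4% lower and 16.4% higher. Without replicate 1 of T6B_MUT these counts went from 2670 to 1731 and from 3531 to 2163, and without replicate 1 of Ago2KO_empty to 1685 and 2238. Without replicate 3 of T6B_MUT 2342 genes were called higher. Of the set, 9 of the 10 had a log2 fold change below 0 and the median was −0.72, which the choice of the set partly fixes. Over all genes tested the median was 0.03, and the share below 0 was not computed. The summed level of the 2-cell-like markers was 53.9 to 64.9 CPM in these libraries.

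**Figure D2:**
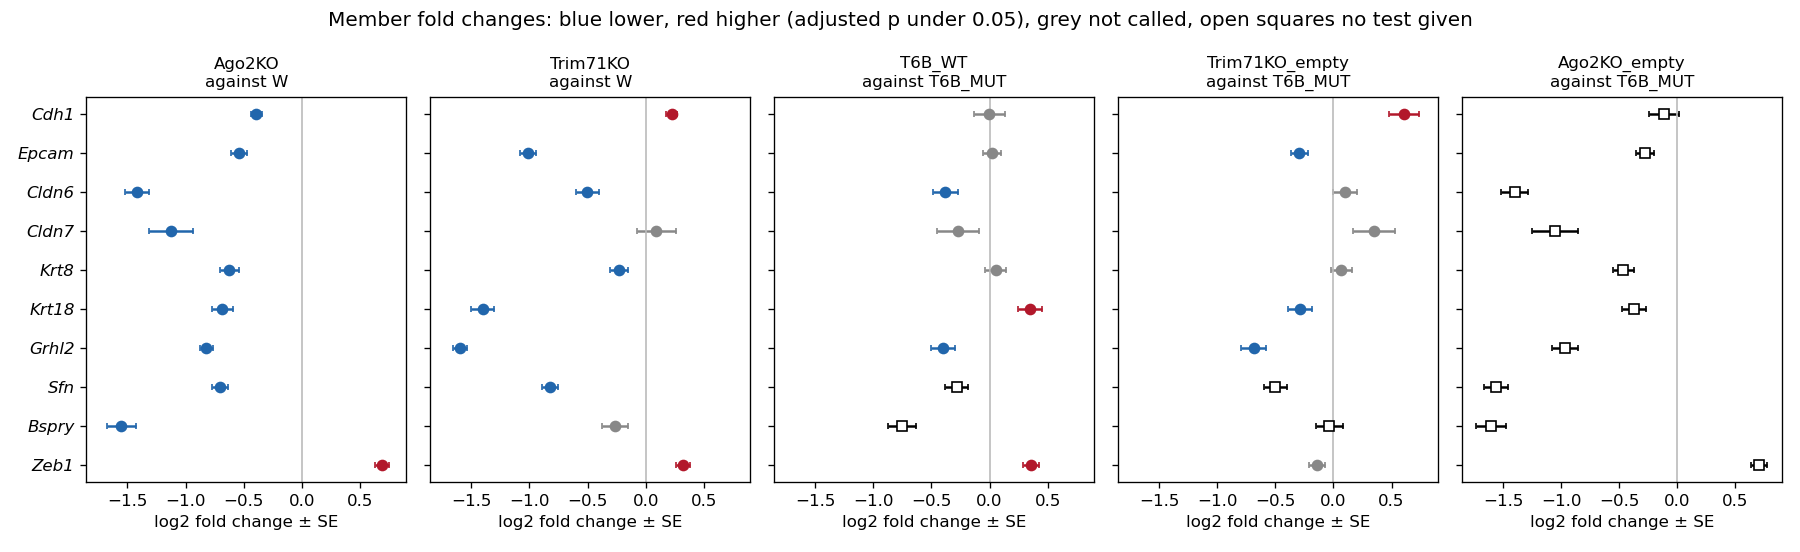
Log2 fold change ± SE (horizontal axes) of each of the 10 genes in 5 comparisons. Blue and red points passed edgeR's test at an adjusted p under 0.05 (lower and higher), grey points did not, and open squares have no test because the values chose the genes. All 10 points are coloured in Ago2KO against W, with Zeb1 the only one above 0.

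Zeb1 (ENSMUSG00000024238, GRCm38 chromosome 18, 5591860 to 5775467, plus strand), the repressor of epithelial genes, lay above its control with Ago2 edited and with the T6B peptide. It stood at 19.2, 17.7 and 19.1 CPM in W, at 23.9, 23.2 and 23.1 CPM in Trim71KO and at 29.4, 31.4 and 29.6 CPM in Ago2KO. The 3 groups did not overlap, with Trim71KO between the others. The rise in Ago2KO was 1.61-fold (log2 fold change 0.69, SE 0.06, edgeR adjusted p 2.64e-06) and that in Trim71KO 1.25-fold (log2 fold change 0.32, SE 0.06, edgeR adjusted p 0.000856). Trim71KO lay below Ago2KO (log2 fold change −0.37, SE 0.06, edgeR adjusted p 0.000229). In Experiment 2, Zeb1 stood at 26.5, 26.5 and 28.1 CPM in T6B_MUT and at 33.2, 34.4 and 36.1 CPM in T6B_WT. Every T6B_WT library lay above every T6B_MUT library, a 1.28-fold rise (log2 fold change 0.35, SE 0.07, edgeR adjusted p 0.00164). In Trim71KO_empty it was 25.0, 25.2 and 23.4 CPM, below T6B_MUT but not called (log2 fold change −0.14, 95% interval −0.28 to −0.00, edgeR adjusted p 0.153). The unadjusted edgeR p was 0.0628, so that interval is too narrow for the test. The libraries labelled Ago2KO_empty had the highest Zeb1 of all 21, at 44.4, 46.9 and 41.1 CPM, with a log2 fold change of 0.71 that was not tested.

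Grhl2 (ENSMUSG00000022286, chromosome 15, 37233036 to 37363569, plus strand), the activator of epithelial genes, fell in both edited lines of Experiment 1. It stood at 40.9, 39.1 and 40.4 CPM in W, at 12.9, 13.7 and 13.2 CPM in Trim71KO and at 22.0, 23.8 and 22.5 CPM in Ago2KO. All 3 groups were apart, and Trim71KO was lowest. The fall was 3.03-fold in Trim71KO (log2 fold change −1.60, SE 0.06, edgeR adjusted p 2.49e-10) and 1.77-fold in Ago2KO (log2 fold change −0.82, SE 0.06, edgeR adjusted p 3.31e-07), and Trim71KO lay below Ago2KO (log2 fold change −0.78, SE 0.06, edgeR adjusted p 2.09e-07). In Experiment 2 Grhl2 stood at 10.9, 12.5 and 10.5 CPM in T6B_MUT and at 8.48, 8.28 and 8.87 CPM in T6B_WT. The T6B_WT libraries lay below all T6B_MUT libraries (log2 fold change −0.40, SE 0.10, edgeR adjusted p 0.0124), a call that was lost without replicate 2 of T6B_MUT (edgeR adjusted p 0.0687). In Trim71KO_empty it was 6.17, 7.85 and 7.03 CPM, below T6B_MUT in every library (log2 fold change −0.69, SE 0.11, edgeR adjusted p 9.12e-05). The libraries labelled Ago2KO_empty stood at 6.03, 6.08 and 5.19 CPM, a log2 difference of −0.97 that was not tested. The annotation places antisense genes over Grhl2. Use of strand in counting is not given in the sources used here, and of these genes Gm16136 reached at most 1.34 CPM and Gm16137 at most 0.278 CPM.

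Cdh1 (ENSMUSG00000000303, chromosome 8, 106603351 to 106670246, plus strand), which encodes E-cadherin, moved in opposite directions in the edited lines. It stood at 206, 196 and 197 CPM in W, at 233, 238 and 230.2 CPM in Trim71KO and at 155, 158 and 144 CPM in Ago2KO. Trim71KO was above W in every library and Ago2KO below. The fall in Ago2KO was 1.31-fold (log2 fold change −0.39, SE 0.05, edgeR adjusted p 5.53e-05) and the rise in Trim71KO 1.17-fold (log2 fold change 0.23, SE 0.05, edgeR adjusted p 0.00200), and the difference between the edited lines was called as well (log2 fold change 0.62, SE 0.05, edgeR adjusted p 1.98e-07). Over the genes of chromosome 8, where Cdh1 lies, the median log2 fold change was 0.19 in Trim71KO, with 39.3% of 1060 genes called higher. The part of this chromosome-wide difference in the Cdh1 value was not tested. In Experiment 2 Cdh1 stood at 133, 137 and 134 CPM in T6B_MUT and at 223, 201 and 189.9 CPM in Trim71KO_empty. The latter was higher throughout (log2 fold change 0.60, SE 0.13, edgeR adjusted p 0.00475), where chromosome 8 had a median of 0.09. T6B_WT, at 129.9, 130.0 and 144 CPM, overlapped T6B_MUT (95% interval of the log2 fold change −0.26 to 0.25, edgeR adjusted p 0.995). Cdh1 scattered widely in the libraries labelled Ago2KO_empty, at 117, 157 and 98.9 CPM. The highest of them is replicate 2, the library with 167 CPM of Ago2, and the log2 fold change of −0.11 became −0.33 without it and −0.00 without replicate 3.

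Epcam (ENSMUSG00000045394, chromosome 17, 87635979 to 87651129, plus strand) fell in both edited lines, more in Trim71KO. It stood at 82.2, 85.8 and 87.7 CPM in W, at 43.5, 37.2 and 45.9 CPM in Trim71KO and at 55.1, 58.2 and 62.5 CPM in Ago2KO. The groups did not overlap, and the order was W, Ago2KO, Trim71KO from high to low. The fall was 2.02-fold in Trim71KO (log2 fold change −1.01, SE 0.07, edgeR adjusted p 9.87e-08) and 1.45-fold in Ago2KO (log2 fold change −0.54, SE 0.07, edgeR adjusted p 0.000109), with Trim71KO below Ago2KO (log2 fold change −0.47, SE 0.07, edgeR adjusted p 0.000131). In Experiment 2 it stood at 71.3, 71.4 and 76.5 CPM in T6B_MUT and at 57.9, 64.2 and 56.9 CPM in Trim71KO_empty, which was lower (log2 fold change −0.29, SE 0.08, edgeR adjusted p 0.00681). T6B_WT, at 73.9, 77.5 and 71.1 CPM, overlapped T6B_MUT (log2 fold change 0.02, 95% interval −0.13 to 0.17, edgeR adjusted p 0.893). At 64.3, 53.2 and 63.1 CPM, the libraries labelled Ago2KO_empty lay below T6B_MUT with no test (log2 fold change −0.28).

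The claudin genes separated the edited lines of Experiment 1. Cldn6 (ENSMUSG00000023906, chromosome 17, 23679249 to 23682446, plus strand), a claudin of early embryonic epithelia, stood at 11.3, 14.7 and 13.0 CPM in W, at 9.04, 8.53 and 9.90 CPM in Trim71KO and at 4.78, 4.79 and 5.00 CPM in Ago2KO. Every Ago2KO library was below every Trim71KO library, and these were below W. The fall was 2.67-fold in Ago2KO (log2 fold change −1.42, SE 0.10, edgeR adjusted p 5.35e-07) and 1.42-fold in Trim71KO (log2 fold change −0.50, SE 0.10, edgeR adjusted p 0.00122). Cldn7 (ENSMUSG00000018569, chromosome 11, 69964779 to 69967885, plus strand) stood at 1.90, 1.96 and 2.18 CPM in W and at 0.899, 0.958 and 0.918 CPM in Ago2KO, and it was the gene with the fewest counts, at least 29 in each library. It was lower in each Ago2KO library (log2 fold change −1.12, SE 0.19, edgeR adjusted p 0.000874). In Trim71KO it stood at 1.71, 1.95 and 2.73 CPM and overlapped W (log2 fold change 0.09, 95% interval −0.24 to 0.43, edgeR adjusted p 0.726). Trim71KO lay above Ago2KO for Cldn6 (log2 fold change 0.92, SE 0.11, edgeR adjusted p 1.13e-05) and for Cldn7 (log2 fold change 1.22, SE 0.19, edgeR adjusted p 0.000176).

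In Experiment 2, Cldn6 stood at 8.20, 8.97 and 8.99 CPM in T6B_MUT and at 6.41, 7.65 and 5.98 CPM in T6B_WT. All T6B_WT libraries were lower (log2 fold change −0.38, SE 0.11, edgeR adjusted p 0.0198), but the edgeR adjusted p rose to 0.0650, 0.0733, 0.0722 and 0.0919 without replicate 2 or 3 of T6B_MUT or replicate 1 or 3 of T6B_WT. Cldn6 in Trim71KO_empty, at 9.52, 8.64 and 9.88 CPM, was not called (log2 fold change 0.10, 95% interval −0.11 to 0.31, edgeR adjusted p 0.521). Cldn7 was called neither in T6B_WT, at 1.77, 1.94 and 1.90 CPM (log2 fold change −0.27, 95% interval −0.63 to 0.09, edgeR adjusted p 0.363), nor in Trim71KO_empty, at 3.42, 2.37 and 2.82 CPM (log2 fold change 0.35, 95% interval 0.00 to 0.70, edgeR adjusted p 0.156). The unadjusted edgeR p of Cldn7 in Trim71KO_empty was 0.0644, so its interval is too narrow for the test. T6B_MUT stood at 2.14, 1.97 and 2.63 CPM for Cldn7, just above T6B_WT and overlapping Trim71KO_empty. Cldn6 was lowest of all 21 in the libraries labelled Ago2KO_empty, at 3.36, 3.01 and 3.53 CPM, a log2 difference of −1.40 from T6B_MUT. For Cldn7 these stood at 1.32, 1.12 and 0.805 CPM, a log2 difference of −1.05, with no test for either.

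In Experiment 1, Krt8 and Krt18, whose products pair in 1 filament, fell by similar amounts in Ago2KO but not in Trim71KO. Krt8 (ENSMUSG00000049382, chromosome 15, 101996698 to 102004482, minus strand) stood at 15.9, 16.1 and 17.2 CPM in W, at 13.9, 13.0 and 15.0 CPM in Trim71KO and at 9.92, 11.6 and 10.5 CPM in Ago2KO. It was lower in every Ago2KO library (log2 fold change −0.62, SE 0.08, edgeR adjusted p 0.000107). In Trim71KO the fall was small (log2 fold change −0.23, SE 0.08, edgeR adjusted p 0.0410), and the edgeR adjusted p rose to 0.108, 0.154, 0.0775 and 0.147 without replicate 1 or 2 of Trim71KO or replicate 2 or 3 of W. Krt18 (ENSMUSG00000023043, chromosome 15, 102028180 to 102032027, plus strand), 23697 bases away, stood at 11.9, 11.6 and 12.9 CPM in W, at 4.52, 4.0 and 5.16 CPM in Trim71KO and at 7.60, 7.66 and 7.40 CPM in Ago2KO. Its fall was 2.64-fold in Trim71KO (log2 fold change −1.40, SE 0.10, edgeR adjusted p 7.24e-08) and 1.61-fold in Ago2KO (log2 fold change −0.68, SE 0.09, edgeR adjusted p 0.000131). Trim71KO lay above Ago2KO for Krt8 (log2 fold change 0.39, SE 0.08, edgeR adjusted p 0.00182) and below it for Krt18 (log2 fold change −0.72, SE 0.10, edgeR adjusted p 5.74e-05).

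The ratio of Krt18 to Krt8 RPKM put this in 1 value per library. It was 1.01 ± 0.02 in W, 0.967 ± 0.074 in Ago2KO and 0.443 ± 0.023 in Trim71KO (mean ± SD, n = 3). In Experiment 2 it was 0.691 ± 0.022 in T6B_MUT, 0.849 ± 0.048 in T6B_WT, 0.542 ± 0.017 in Trim71KO_empty and 0.736 ± 0.052 in the libraries labelled Ago2KO_empty. Both Trim71-/- groups were thus below their controls in every library and T6B_WT above its own. With 3 libraries against 3, the two-sided exact permutation test cannot go below p = 0.1, which it gave for each of these 3 comparisons (0.133 after Benjamini-Hochberg adjustment over 4 comparisons), and it gave 0.5 for Ago2KO.

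In Experiment 2, Krt18 stood at 10.5, 10.8 and 10.6 CPM in T6B_MUT and at 12.4, 15.3 and 12.9 CPM in T6B_WT, a rise (log2 fold change 0.35, SE 0.10, edgeR adjusted p 0.0236). That call was lost without replicate 1, 2 or 3 of T6B_MUT or replicate 2 of T6B_WT, with edgeR adjusted p values of 0.103, 0.0711, 0.0842 and 0.181. In Trim71KO_empty Krt18 stood at 9.54, 8.29 and 8.32 CPM and was called lower (log2 fold change −0.28, SE 0.10, edgeR adjusted p 0.0482), but not by DESeq2 (adjusted p 0.0601). The edgeR adjusted p was 0.0962 to 0.133 when any replicate of T6B_MUT or replicate 2 or 3 of Trim71KO_empty was left out. Krt8 stood at 21.4, 20.7 and 20.8 CPM in T6B_MUT and overlapped both T6B_WT, at 21.3, 24.0 and 19.8 CPM (log2 fold change 0.05, 95% interval −0.12 to 0.22, edgeR adjusted p 0.763), and Trim71KO_empty, at 24.8, 20.3 and 20.7 CPM (log2 fold change 0.07, 95% interval −0.11 to 0.24, edgeR adjusted p 0.616). The libraries labelled Ago2KO_empty lay below T6B_MUT for both, at 14.9, 14.7 and 15.9 CPM of Krt8 (log2 fold change −0.47) and 7.50, 7.88 and 9.25 CPM of Krt18 (−0.37), with no test.

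Sfn (ENSMUSG00000047281, chromosome 4, 133600556 to 133602168, minus strand) encodes stratifin, the 14-3-3 sigma protein of epithelial cells. It stood at 30.0, 32.3 and 32.7 CPM in W, at 17.2, 16.9 and 19.5 CPM in Trim71KO and at 20.0, 18.6 and 19.5 CPM in Ago2KO. Both edited lines were below W in every library and overlapped each other. The fall was 1.63-fold in Ago2KO (log2 fold change −0.71, SE 0.07, edgeR adjusted p 6.79e-06) and 1.77-fold in Trim71KO (log2 fold change −0.82, SE 0.07, edgeR adjusted p 5.87e-07), and the edited lines were not told apart (log2 fold change −0.11, 95% interval −0.25 to 0.02, edgeR adjusted p 0.235). In Experiment 2, given as a description, Sfn stood at 15.4, 16.5 and 13.8 CPM in T6B_MUT, at 13.4, 12.9 and 11.2 CPM in T6B_WT and at 11.4, 9.78 and 11.1 CPM in Trim71KO_empty. The libraries labelled Ago2KO_empty were lowest, at 5.15, 4.71 and 5.61 CPM. The log2 differences from T6B_MUT were −0.28 for T6B_WT, −0.50 for Trim71KO_empty and −1.56 for the libraries labelled Ago2KO_empty. The last was −1.52 without replicate 2, the library with high Ago2.

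Bspry (ENSMUSG00000028392, chromosome 4, 62480053 to 62497298, plus strand) encodes a B-box and SPRY-domain protein. It stood at 9.69, 10.7 and 11.6 CPM in W, at 7.96, 8.03 and 10.5 CPM in Trim71KO and at 3.88, 3.34 and 3.61 CPM in Ago2KO. Ago2KO was far below both other groups, which overlapped each other. The fall in Ago2KO was 2.93-fold (log2 fold change −1.55, SE 0.12, edgeR adjusted p 1.00e-06). Trim71KO was not called (log2 fold change −0.26, 95% interval −0.48 to −0.05, edgeR adjusted p 0.0859), although the log2 fold change was −0.41 (edgeR adjusted p 0.00575) without its replicate 3 and −0.33 (edgeR adjusted p 0.0477) without replicate 1 of W. Trim71KO lay above Ago2KO (log2 fold change 1.29, SE 0.12, edgeR adjusted p 1.72e-06). In Experiment 2, as a description, Bspry stood at 7.44, 7.72 and 7.33 CPM in T6B_MUT and at 4.50, 4.96 and 3.85 CPM in T6B_WT. Trim71KO_empty, at 7.15, 7.15 and 7.62 CPM, overlapped T6B_MUT, and the libraries labelled Ago2KO_empty were lowest, at 2.45, 2.08 and 2.86 CPM. The log2 differences from T6B_MUT were −0.75 for T6B_WT, −0.04 for Trim71KO_empty and −1.60 for the libraries labelled Ago2KO_empty, the last −1.51 without replicate 2.

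Loss of Trim71 changed several of these genes less in Experiment 2 than in Experiment 1. The log2 fold change in Experiment 2 minus that in Experiment 1, tested over all 21 libraries, was 1.12 (SE 0.15, edgeR adjusted p 9.51e-06) for Krt18. It was 0.91 (SE 0.12, edgeR adjusted p 8.76e-06) for Grhl2, 0.72 (SE 0.11, edgeR adjusted p 8.33e-05) for Epcam and 0.60 (SE 0.15, edgeR adjusted p 0.00849) for Cldn6. For Zeb1, called higher in Trim71KO and not called in Trim71KO_empty, it was −0.46 (SE 0.09, edgeR adjusted p 0.000980). These 5 of the 8 genes tested were called, where 10.1% of all genes were, 5.04% with a positive and 5.01% with a negative difference. The count with a negative difference went from 1115 to 706 without replicate 1 of T6B_MUT and to 740 without replicate 1 of Trim71KO_empty. Of the markers, 6 of 8 of primitive endoderm (median difference 1.54) and 6 of 7 of 2-cell-like cells (median 2.87) were called with a positive difference, and their part was not tested. For Cdh1 (0.38, edgeR adjusted p 0.0845), Krt8 (0.30, edgeR adjusted p 0.136) and Cldn7 (0.26, edgeR adjusted p 0.605) the difference was not called, but for Cdh1 it was with only the 4 groups concerned fitted (edgeR adjusted p 0.00253). The controls differ between the experiments, being untransfected in one and transfected with the mutant plasmid in the other, and their part cannot be told apart.

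Other genes of epithelial adhesion and of mesenchymal cells were counted by list. In Ago2KO, where 10.2% of all genes were called higher and 7.78% lower, 3 of 17 adherens junction and desmosome genes rose and 2 fell, with a median log2 fold change of −0.05. Those that rose were Dsp (0.33), Jup (0.29) and Perp (0.23), all parts of desmosomes, and those that fell were the plakophilins Pkp3 (−0.38) and Pkp2 (−0.19). Of 20 tight-junction genes 7 fell and 1 rose (median −0.07), among them the polarity scaffold Patj (−0.65), the junctional adhesion molecule gene F11r (−0.58) and Lsr of tricellular junctions (−0.32) as lower and Cldn12 (0.17) as higher, though not by DESeq2. Of 18 genes for epithelial proteases, trafficking, splicing and transcription, 5 fell and 4 rose (median −0.13). The epithelial splicing factor Esrp1 fell by 1.46 and the epithelial sorting adaptor Ap1m2 by 1.21 on the log2 scale, whereas Tfap2c (0.50) and Grhl3 (0.50) rose. Of 6 other 14-3-3 genes Ywhaz was called (−0.14). Of 4 other keratin genes, whose log2 fold changes ran from −0.32 to 0.44, edgeR called 0, with 1 at an unadjusted p under 0.05 and 1 called by DESeq2. Among 15 mesenchymal genes and repressors of Cdh1, Vim, the intermediate filament of mesenchymal cells, was the one gene called (0.67). The repressors Snai1 (log2 fold change −0.44, 95% interval −0.92 to 0.05, edgeR adjusted p 0.260) and Zeb2 (log2 fold change −0.22, 95% interval −0.67 to 0.23, edgeR adjusted p 0.577) were not.

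In Trim71KO, where 16.9% of all genes were called higher and 15.6% lower, 4 of the 6 lists held calls in both directions. The desmosomal cadherin Dsg2 (0.95) and the junction receptor Cxadr (1.16) had the largest rises among the better expressed called genes of their lists (mean log2 CPM 2 or more), and Evpl (−1.0), Cldn4 (−0.92) and Esrp1 (−0.93) the largest falls. Of the adherens junction and desmosome genes 5 rose and 3 fell, of the tight-junction genes 3 and 6, of the genes for proteases, trafficking, splicing and transcription 4 and 5, and of the mesenchymal genes and repressors 4 and 4. The medians of these 4 lists were 0.04, −0.19, −0.14 and −0.03. Of the 6 other 14-3-3 genes 3 fell (median −0.12). Krt17 rose (0.93) as 1 of 4 other keratin genes.

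With the T6B peptide, where 9.29% of all genes were called higher and 6.69% lower, 2 of 17 adherens junction and desmosome genes rose, Perp (0.80) and Dsp (0.56), and 2 fell, Pkp3 (−0.35) and Nectin2 (−0.31). Of the 18 genes for proteases, trafficking, splicing and transcription 3 rose, among them Grhl3 (0.43) and Tfap2c (0.35), and 2 fell, Esrp1 (−0.67) and Ap1m2 (−0.46). Among 14 mesenchymal genes and repressors 3 were called, all as higher and Vim (0.44) among them, with a median over the list of 0.21, against 0.01 over all genes. Of the tight-junction genes 2 rose and 1 fell. Of the other keratin genes (5 tested) and 14-3-3 genes (6 tested) edgeR and DESeq2 called 0, and 2 keratin genes and 0 14-3-3 genes had an unadjusted p under 0.05 by edgeR. In Trim71KO_empty against T6B_MUT, where 14.4% of all genes were called higher and 13.4% lower, 4 adherens junction and desmosome genes rose and 4 fell, and 5 tight-junction genes rose and 6 fell. Of the proteases, trafficking, splicing and transcription list 5 rose and 3 fell, of the mesenchymal genes and repressors 1 and 4, of the other keratin genes 2 and 0 and of the other 14-3-3 genes 0 and 3. Among the adherens junction, desmosome and tight-junction genes were Dsc2 (0.75) and Cxadr (0.71) as higher and Evpl (−0.72) and Cgn (−0.69) as lower.

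**Figure D3:**
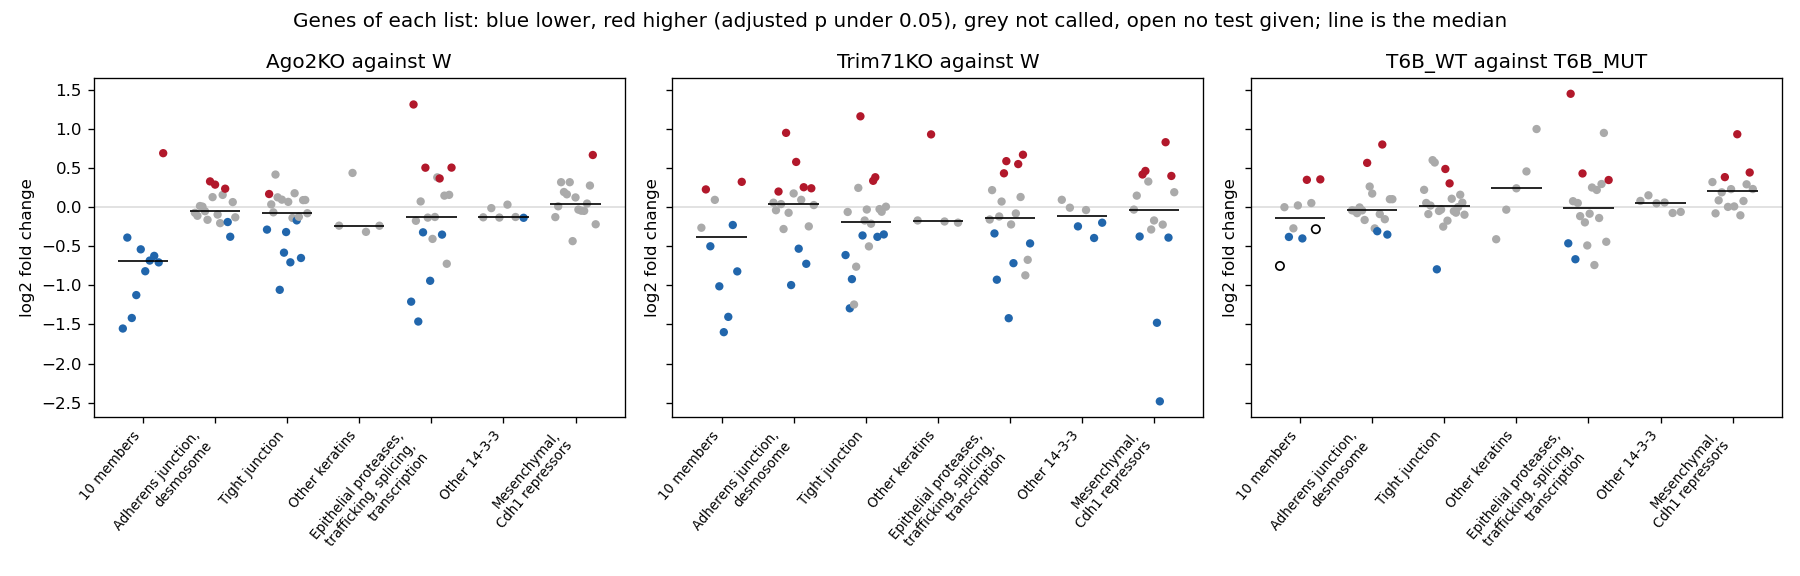
Log2 fold change (vertical axis) of every tested gene of the 10-gene set and of 6 lists of related genes in 3 comparisons. Blue and red points passed edgeR's test at an adjusted p under 0.05, grey points did not, open points have no test, and lines are medians. In Ago2KO against W the line of the 10 genes is at −0.70 and that of the tight-junction list at −0.07.

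Over the 21 libraries, each taken relative to the mean of its experiment, the 10 genes did not all move together. Pearson r of log2 CPM was 0.97 between Bspry and Cldn6 and 0.94 between Epcam and Krt18. Zeb1 ran opposite to Cldn6 (r = −0.96) and Bspry (r = −0.95) and had an r of −0.30 with Epcam. Of the 45 pairs, 9 had an r above 0.8 and 12 below 0. Those below 0 were every pair with Zeb1 and the pairs of Cdh1 with Epcam, Krt18 and Grhl2. Shares over pairs of all genes were not computed. Among 12881 genes with a symbol and a mean log2 CPM of 2 or more, those most like Bspry were Ap1m2, Cldn6 and Noc2l (each 0.97), Rps12-ps15 (0.95) and Gm9855 (0.94), of which Rps12-ps15 is annotated by name as a pseudogene. Most like Sfn were Aamp, Rnpep and Scly (each 0.94), Nptx2 and Ppp1r18 (each 0.92). Krt8 was most like Cldn6 (0.92), Ptgr1 (0.91), F11r and Hk1 (each 0.90) and Ap1m2 (0.89). These values describe 21 libraries that fall into 7 groups, share their depth and group differences, and include the contrast that chose the set.

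**Figure D4:**
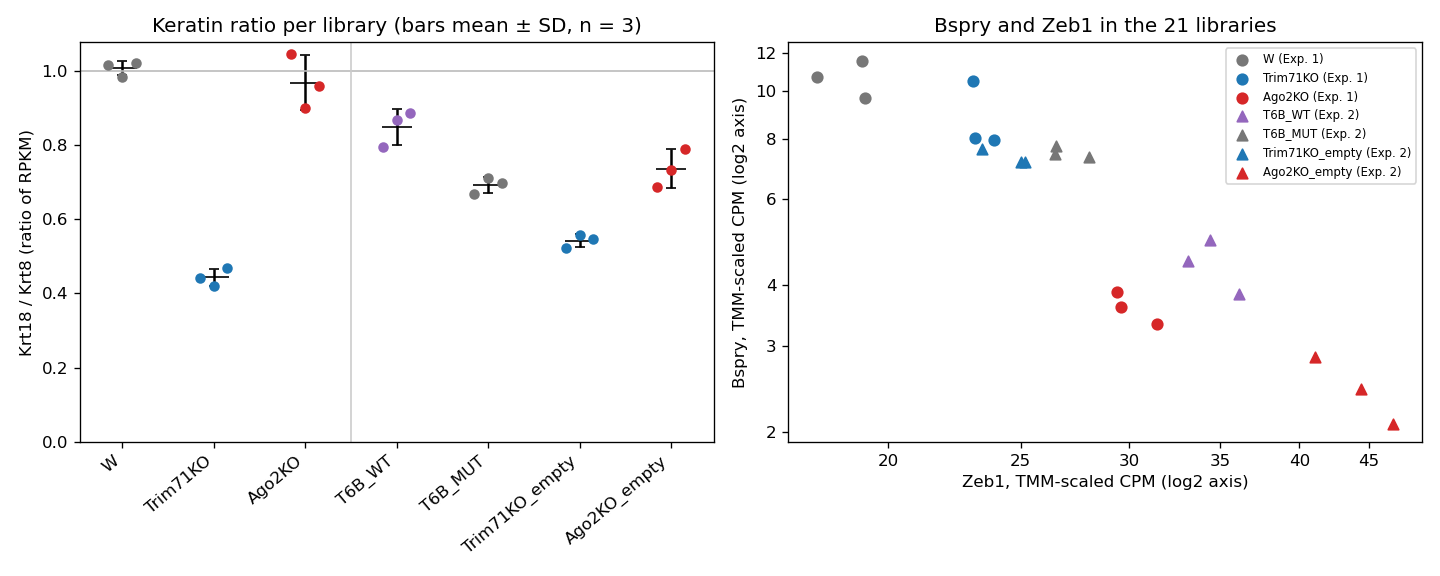
Left, the ratio of Krt18 to Krt8 RPKM (vertical axis from 0) in each library by group, with bars for mean ± SD (n = 3); Trim71KO lies lowest, at 0.443. Right, Bspry against Zeb1, both as TMM-scaled CPM on log2 axes, with 1 point per library; the libraries labelled Ago2KO_empty have the highest Zeb1 and the lowest Bspry.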

How the data were processed

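Total RNA was sequenced in 21 libraries, and the titles and treatment labels gave the groups. Whether each library is a separate culture is not given beyond the design's term biological replicates. Reads were processed with STAR 2.7.3a and bcl2fastq 2.17 against GRCm38 (mm10), per the submitters' processing notes. The annotation, the filter on genes and the use of strand in counting are not given in the sources used here. The authors deposited 1 table with raw counts, RPKM and a gene length in bases for 22512 genes, per the file headers. Raw counts entered all tests. The deposited RPKM served for levels between genes and for the keratin ratio.

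Counts were tested with edgeR 4.0.16 in R 4.3.3 (quasi-likelihood F test, robust, TMM, filterByExpr with a minimum count of 10, Benjamini-Hochberg adjustment, threshold 0.05), separately for the 9 libraries of Experiment 1 (21210 genes) and the 12 of Experiment 2 (21505 genes), and over all 21 (22258 genes) for the difference between experiments. Script output was checked on simulated counts with 200 genes changed 2-fold. Of these, 84% were recovered for Ago2KO against W and 76% for T6B_WT against T6B_MUT. Among genes called at the threshold of 0.05, 7.69% and 10.6% were false, more than the threshold aims at. Intervals called 95% are 1.96 SE to each side and are narrower than edgeR's F test implies. For Zeb1 and Cldn7 in Trim71KO_empty they lie wholly below and wholly above no change. The unadjusted edgeR p was 0.0628 and 0.0644 there, so calls rest on the test and not on the intervals. Alternatives were DESeq2 1.42.0, RLE size factors, no filter, the replicate number as a block, only the groups compared, and leaving out each library. The 10 genes and the lists of related and marker genes, some of which are not analysed here because they had no row, were chosen with earlier results of these data known. Listed genes are named where they had one of the 3 largest rises or falls of their list among those called and well expressed (mean log2 CPM 2 or more). Snai1 and Zeb2 were named as known repressors after their values were seen. Coordinates and 3′ UTRs are from GENCODE M21, promoters and microRNAs from RefSeq.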

Additional observations from a re-analysis of the deposited data

Results flagged for a closer look

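For 5 of the 8 genes tested the effect of Trim71 loss differed between the 2 experiments, where 10.1% of all genes were called. The difference itself was tested (edgeR quasi-likelihood, all 21 libraries). With only the 4 groups concerned fitted, Cdh1 was called as well (edgeR adjusted p 0.00253). The log2 fold change in Experiment 2 minus that in Experiment 1 was 1.12 for Krt18, 0.91 for Grhl2, 0.72 for Epcam, 0.60 for Cldn6 and −0.46 for Zeb1. Grhl2 and Epcam fell in both experiments, and less in Experiment 2. Krt18 fell in Trim71KO and was called lower in Trim71KO_empty by edgeR (adjusted p 0.0482), but not by DESeq2 (adjusted p 0.0601), nor by edgeR with the replicate block (adjusted p 0.0649) or in 5 of 6 fits that left out 1 library. Cldn6 fell in Trim71KO and was not called in Trim71KO_empty. Zeb1 rose in Trim71KO and was not called in Trim71KO_empty. The control differs between the experiments, and whether plasmid or culture has a part in these differences cannot be told apart.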

How the results depend on the processing

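Over all alternatives, 619 of 642 tested values of the 10 genes kept their direction and their side of the threshold, 20 lost a call, 3 gained one and 0 changed direction with a call. All 188 values given without a test moved by less than the spread between replicates. Leaving out 1 of 3 libraries can hardly move a mean by more than that spread, so nothing is concluded from those fits. Ago2KO against W kept 10 called genes of the set under every alternative. For T6B_WT against T6B_MUT, the count of all genes called went from 3437 to 5632 with only the groups compared, and to 2045 to 2497 when 1 library was left out, lowest without replicate 1 of T6B_MUT. Of the 8 genes of the set tested, 1 to 3 were then called in place of 4, with 1 without replicate 2 and 2 without replicate 3 of T6B_MUT. The main fit called 16.0% of all genes, and the share in the fits without a library was not computed. For the libraries labelled Ago2KO_empty, all genes called went from 6201 to between 3894 (without replicate 1 of T6B_MUT) and 8083, with 3923 without replicate 1 of Ago2KO_empty. The cause was not tested. Single calls lost or gained stand beside their values above.

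Same-numbered libraries did not deviate together in every comparison. Their r was −0.64 to 0.07 for Ago2KO and W, −0.19 to 0.60 for Trim71KO and W, and −0.31 to 0.64 for Trim71KO and Ago2KO. The deviations of 3 libraries from their mean sum to 0, so this check cannot decide whether the numbers pair the samples. The main fits used no replicate block. With the replicate number as a block, genes called were 6886 for Trim71KO against W, 3831 for Ago2KO against W, 7188 for Trim71KO against Ago2KO, 3247 for T6B_WT, 5801 for Trim71KO_empty and 5976 for the libraries labelled Ago2KO_empty, each against T6B_MUT, and 2110 for the difference in Trim71 loss. The block changed 1 call of the set, that of Krt18 in Trim71KO_empty (edgeR adjusted p 0.0649).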
